A study of Xenopus laevis with 2 samples.

Results

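Translation initiation, elongation and termination factors, with the cytoplasmic poly(A)-binding proteins and some of their regulators, were read from RNA of frog animal caps that had received xnr2 RNA. The members were all gene models whose symbol begins with EIF1 to EIF6 or EEF1, or equals EEF2, ETF1, GSPT1 or GSPT2, or begins with PABPC and a digit. The rule uses names and no measured value. It kept 109 of 24364 gene models, which carry 61 symbols. Of these models 58 lie on chromosomes of the L subgenome, 45 on chromosomes of the S subgenome and 6 on unplaced scaffolds. Xenopus laevis is an allotetraploid, so that most genes exist as an L and an S copy inherited from different ancestors. The models are named after human genes, and paralogs can therefore share a symbol.

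The samples were 2 libraries of a single group, numbered 1 and 3 in the labels. Embryos of Xenopus laevis were injected at the 2- to 4-cell stage with RNA for xnr2, a TGF-beta family ligand of the Nodal type, so that ectoderm carried the genotype given as exogenous xnr2 expression. The animal caps, the ectodermal roof of the embryo, were excised at stage 10 and collected at stage 14, with 10 explants pooled for each extraction of total RNA. Libraries came from polyA-selected RNA and a kit that does not mark strand. No caps without xnr2 RNA were analysed here, so a level below is not a response to xnr2. Nothing in the labels says that the libraries came from separate clutches, and any p-value therefore measures only the spread between these samples, which may be technical. For each pair of copies tested below, limma also draws on the spread of the other pairs. A p-value or SE given there is thus not the spread of that pair alone. In pooled tissue, fewer cells of a type and less RNA per cell cannot be told apart.

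Translation of a capped mRNA begins when the cap-binding complex eIF4F, made of eIF4E, eIF4G and the helicase eIF4A, brings the mRNA to the small ribosomal subunit. That subunit carries eIF1, eIF1A, eIF3, eIF5 and the ternary complex of eIF2, GTP and initiator tRNA, and it scans to the start codon before eIF5B joins the large subunit to it. Elongation then needs eEF1A to deliver aminoacyl-tRNA, eEF1B to recharge eEF1A with GTP, and eEF2 to move the ribosome along, until eRF1 and eRF3 release the protein at the stop codon. In early frog development maternal mRNA is translated first, and several factors have separate oocyte forms.

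The recovered exon reads numbered 25880104 in library 1 and 29238297 in library 3, and a model with 0 reads may still have stood at 3 reads, or 0.116 and 0.103 CPM, the unit in which reads are scaled to the library's recovered exon reads. This floor covers counting error only. In these ectodermal explants that had received xnr2 RNA, skeletal muscle markers summed to 15892 and 16047 CPM over 5 matched symbols. The 6 epidermis markers summed to 3183 and 3707 CPM. Within the epidermis list ITLN1 stood at 30.4 and 0.718 CPM and KRT12 at 48.3 and 8.07 CPM in libraries 1 and 3. TP63 stood at 1.66 and 2.29 CPM and TFAP2A at 2.94 and 1.92 CPM, and the sum rested on KRT8 and KRT18. Notochord markers summed to 417 and 767 CPM, neural markers to 528 and 562 CPM, and endoderm markers to 203 and 169 CPM with HHEX at 0 reads. Nearly all of the neural sum came from TUBB2B, at 517 and 549 CPM in libraries 1 and 3. NCAM1 stood at 7.53 and 11.9 CPM and PAX6 at 3.21 and 1.68 CPM, and no model carried the symbol SOX2. Blood markers were at or near 0 with GATA1 at 0 reads. Germ cell and oocyte markers summed to 55.6 and 67.6 CPM, nearly all from DDX4, while DAZL, GDF9 and BMP15 had between 2 and 39 reads each per library. The part of this mixture of tissues in the levels below was not tested.

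RNA was found for nearly all of the translation machinery. Of the 109 members, 101 reached 1 CPM in both libraries, against 62.8% of all models, and 0 members lacked reads altogether. The 8 below this level were EEF1A2 on 9_10L and 9_10S, an EEF2 model on 1L, a pair of EIF2AK2 models on 5L, both EIF4E1B models and EIF4E2 on 3L. Together the members took 5.35% of exon reads in library 1 and 5.33% in library 3, or 5.34 ± 0.0190% (SD, n = 2). The median member stood at 71.7 CPM per kb of exon in library 1 and 66.8 CPM per kb in library 3, where the median of all models was 1.82 and 1.91 CPM per kb. Levels of different genes are compared here on that per kb scale unless stated. The scale rests on the exon length of each model, which can differ between copies of a gene. EIF3H, for example, has 3099 bp on 6L and 1113 bp on 6S. Orders and ratios between genes below carry this limit. The 147 cytoplasmic ribosomal protein models had a higher median level of 524 and 377 CPM per kb, and 29 aminoacyl-tRNA synthetase models a lower one of 17.0 and 18.2 CPM per kb. Within the members the level ran from near 0 to the highest of all models of the table. Of the members, 41 had a mean level of 100 CPM per kb or more and 27 lay under 10 CPM per kb. Over the 109 members Pearson's r between the libraries was 0.992 and Spearman's rho 0.989 in log2(CPM + 1), over points that share their gene and its exon length in both libraries.

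**Figure D1:**
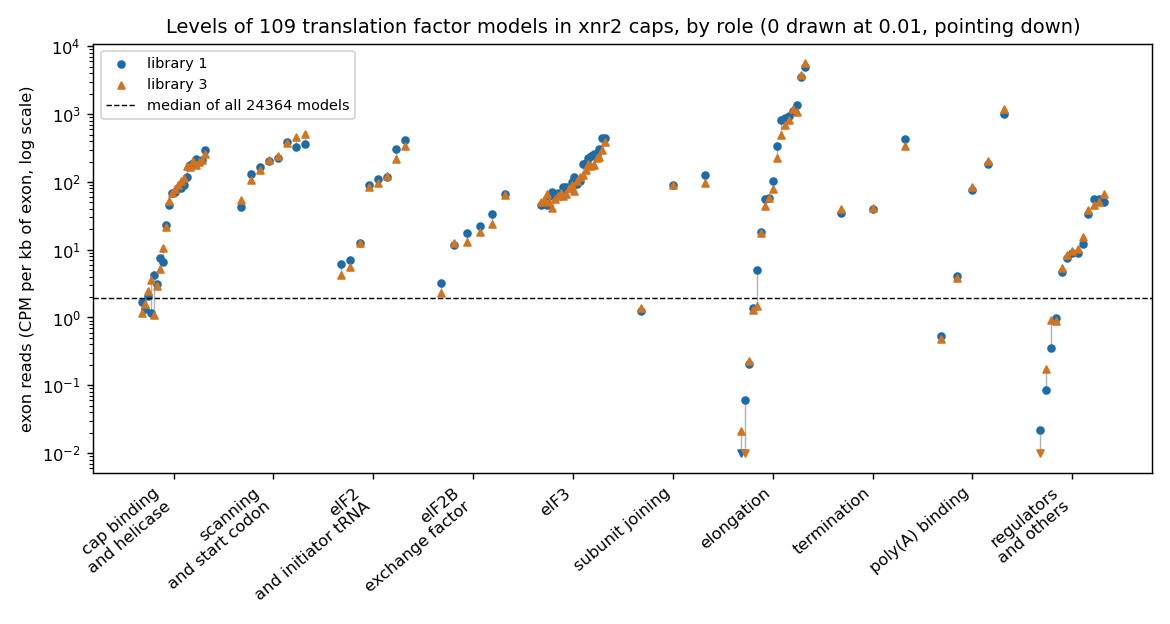
Level of each of the 109 models in both libraries, in CPM per kb of exon on a log axis, grouped by the factor's role and sorted within each role. Elongation spans the widest range, from 0 reads to the EEF1A1 model at 5007 and 5591 CPM per kb, while all 24 eIF3 models lie between 41.3 and 449 CPM per kb, far above the dashed median of all models.

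Among cap-binding factors, EIF4E, EIF4G1, EIF4G2 and the 3 EIF4A helicases had summed levels between 135 and 297 CPM per kb in both libraries, and the other relatives of EIF4E and EIF4G lay lower. EIF4E, the protein that holds the cap, had a summed level over its L and S copies of 153 CPM per kb in library 1 and 169 CPM per kb in library 3. EIF4E2, a relative known as a repressor of cap-dependent initiation, summed to 84.8 and 78.0 CPM per kb, of which its model on Scaffold20 gave 69.8 and 68.9 CPM per kb. Library 1 was the lower one for EIF4E and the higher one for EIF4E2, and EIF4E exceeded EIF4E2 by 1.80-fold and 2.17-fold. The other EIF4E2 models were at 7.62 and 5.12 CPM per kb on 5S, at 3.16 and 2.94 CPM per kb on Scaffold44 and at 4.29 and 1.08 CPM per kb on 3L. EIF4E3, a further relative of the family, reached 6.50 and 10.7 CPM per kb from its 4S copy and 1.34 and 1.60 CPM per kb from its 4L copy. EIF4E1B, known in Xenopus as an oocyte form of the cap-binding protein, had 20 and 69 reads on 3L and 33 and 26 reads on 3S in libraries 1 and 3. These reads give summed levels of 2.86 and 4.75 CPM per kb, 53.6-fold and 35.6-fold below EIF4E.

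Messages for the scaffold protein of the complex came mainly from EIF4G1 and EIF4G2. EIF4G1, which bridges the cap to eIF3, summed to 135 CPM per kb in library 1 and 166 CPM per kb in library 3. EIF4G2, also known as DAP5, lacks the site for eIF4E and serves cap-independent initiation. It summed to 197 and 273 CPM per kb. Both were higher in library 3, and EIF4G2 exceeded EIF4G1 by 1.46-fold and 1.64-fold. EIF4G3 stayed at 2.06 and 2.46 CPM per kb from its only model (7L), 65.5-fold and 67.5-fold below EIF4G1. Of the helicases, EIF4A2 (5L) stood at 297 and 255 CPM per kb and EIF4A1 (3L) at 189 and 205 CPM per kb. EIF4A2 was thus higher by 1.57-fold in library 1 and by 1.24-fold in library 3. The RefSeq table lists both an L and an S gene for EIF4A1, so its level may leave out a copy and this order is uncertain. EIF4A3 (5S), a helicase of the exon junction complex, was at 208 and 209.5 CPM per kb. The helicase cofactor EIF4B had the highest summed level of this group, at 393 and 344 CPM per kb, and its relative EIF4H summed to 228 and 219 CPM per kb.

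All models of the scanning and start codon factors except EIF1 stood above 100 CPM per kb in both libraries. EIF1B, a form of the scanning factor eIF1, stood at 359.7 and 516 CPM per kb on 6S (45758450 to 45762585), at 332 and 465 CPM per kb on 6L and at 131 and 108 CPM per kb on 9_10S. The models on 6L and 6S were higher in library 3 and the model on 9_10S was lower there. EIF1 itself had only the model on 9_10L (1002463 to 1004984), at 42.9 and 55.0 CPM per kb. By symbol, the summed EIF1B level exceeded it by 19.2-fold and 19.8-fold. That sum includes the EIF1B model on 9_10S (864159 to 867387), on the partner chromosome of the EIF1 model. KRT12 models lie nearby on both chromosomes, from 1217034 on 9_10L and from 1040971 on 9_10S. If the 9_10S model is the S copy of EIF1, which was not tested, these ratios would be smaller. EIF1 and EIF1B are human names, and which frog gene each of these models is was not tested. EIF5, which makes eIF2 hydrolyse its GTP at the start codon, summed to 587 and 583 CPM per kb, and EIF1AX, the scanning factor eIF1A, to 395 and 388 CPM per kb. Both were nearly level between the libraries.

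The messages of the 3 subunits of eIF2 were far from equal. EIF2S2, the beta subunit, summed to 725 CPM per kb in library 1 and 557 CPM per kb in library 3. EIF2S3, the gamma subunit that binds GTP and the tRNA, summed to 228 and 219.6 CPM per kb. EIF2S1, the alpha subunit whose phosphorylation shuts initiation down, stood at 89.7 and 83.3 CPM per kb from its only model, on 8L (97890426 to 97902185). The order beta, gamma, alpha held in both libraries, with EIF2S2 8.08-fold and 6.69-fold above EIF2S1. For 5 of the 23 symbols with 1 model (EIF2B2, EIF2S1, EIF4A1, EIF5A and EIF6) the RefSeq table lists both an L and an S gene, so their levels here may leave out a copy. For EIF5A the model called EIF5AL1 on 5S lies, by its neighbours, where RefSeq has eif5a, and its level is given apart below. The eIF2-independent tRNA carriers were lower, EIF2A at a summed 18.8 and 16.8 CPM per kb and EIF2D at 7.04 and 5.58 CPM per kb. The exchange factor eIF2B, which recharges eIF2 with GTP, was lower, with a median subunit at 22.4 and 18.4 CPM per kb. Its 5 subunits ran from EIF2B4 at 11.6 and 12.4 CPM per kb to EIF2B3 at 66.1 and 63.7 CPM per kb, a span of 5.69-fold and 5.12-fold. Between them lay EIF2B1 at a summed 36.4 and 26.0 CPM per kb, EIF2B2 at 22.4 and 18.4 CPM per kb and EIF2B5, the catalytic subunit, at 17.8 and 12.9 CPM per kb. Of the 5, only EIF2B4 was higher in library 3.

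All 13 subunits of eIF3, the large scaffold on the small ribosomal subunit, were found, with 24 models that each reached 1 CPM in both libraries. Of all models 62.8% reached that level. Summed over copies, the subunits ran from EIF3CL, the table's name for the c subunit, at 92.5 CPM per kb to EIF3E at 511 CPM per kb in library 1. In library 3 they ran from EIF3H at 97.6 CPM per kb to EIF3D, the subunit known to bind the cap of some mRNAs, at 387 CPM per kb. The highest subunit thus exceeded the lowest by 5.52-fold and 3.97-fold. The large subunits EIF3A at 139 and 153 CPM per kb and EIF3B at 169.7 and 187 CPM per kb lay in the lower part of the range with EIF3CL and EIF3H. The small subunit EIF3K lay near the top at 393 and 299.5 CPM per kb. Not divided by length, EIF3A summed to 727 and 801 CPM and EIF3K to 557 and 426 CPM, so their order depends on exon length. EIF3A, EIF3B and EIF3CL were higher in library 3 and the other 10 subunits were higher in library 1, with the same split under each of 3 library scalings.

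**Figure D2:**
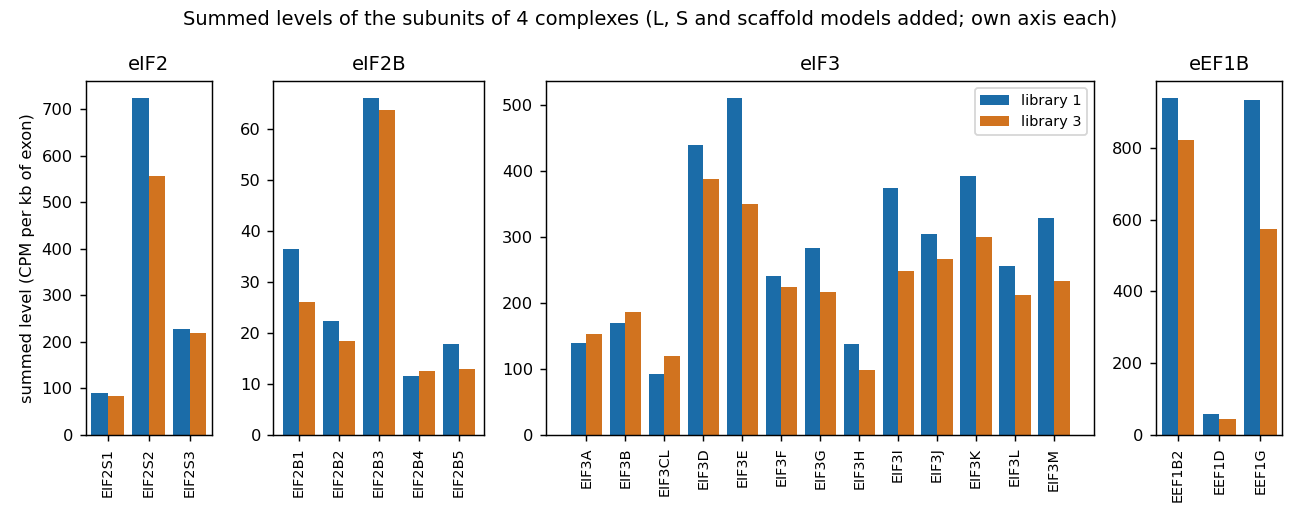
Summed level of each subunit of eIF2, eIF2B, eIF3 and eEF1B in library 1 (blue bars) and library 3 (orange bars), in CPM per kb of exon with an axis from 0 for each complex. Within eIF2 the bars follow the order EIF2S2, EIF2S3, EIF2S1 in both libraries, and in eEF1B the bars of EEF1D are 16.3-fold and 18.1-fold below those of EEF1B2.

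At subunit joining, EIF6, which keeps free large subunits apart from small ones, stood at 125 and 96.9 CPM per kb (9_10L). EIF5B, the GTPase that joins the subunits, summed to 90.8 and 92.5 CPM per kb. The first was lower in library 3 and the second was nearly level.

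Elongation factors held the highest members, and EEF1A1 dominated them. Its 4 models took 42.0% of all member reads in library 1 and 46.5% in library 3. The model on 5S (73778069 to 73783522) stood at 5007 and 5591 CPM per kb, the highest level of all 24364 models. The model on Scaffold28 (949122 to 952163) followed at 3551 and 3841 CPM per kb, the third highest. The model on Scaffold67 was at 1108 and 1175 CPM per kb, and that on 2L (88778609 to 88785210) at 58.6 and 57.2 CPM per kb. The first 3 were higher in library 3 and the model on 2L was nearly level. Symbols do not tell the frog genes apart, so the neighbours of 16 models were looked up by name in the RefSeq table, with at least 3 shared genes among 5 on each side. By that match the models on 5S and Scaffold28 lie where RefSeq has eef1a1, and those on Scaffold67 and 2L where it has eef1a1o, named as the oocyte form. The eef1a1 pair summed to 8558 and 9433 CPM per kb and the eef1a1o pair to 1166 and 1232 CPM per kb, a ratio of 7.34-fold and 7.65-fold. Close copies such as these can share reads, and how the authors counted reads with several matches is not given here, so the split between the 4 models is uncertain.

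EEF1A2, which replaces EEF1A1 in adult muscle and neurons of mammals, was low. Its models on 9_10L and 9_10S had 0 and 1 reads and 3 and 0 reads in libraries 1 and 3, at or under the floor of 3 reads. Its remaining model, on 6L, had 202 and 67 reads, or 5.07 and 1.49 CPM per kb, and could not be matched to a RefSeq gene by its neighbours. EEF2, the translocase, had models at 1362 and 1092 CPM per kb on 1L (88904251 to 88913125) and at 877 and 694 CPM per kb on 1S, both lower in library 3. A further model called EEF2, on 1L at 211247114 to 211269949, had 16 and 20 reads and no match among RefSeq genes. Summed EEF1A1 exceeded summed EEF2 by 4.34-fold and 5.97-fold. The subunits of the exchange factor eEF1B were uneven as well. EEF1B2, a catalytic subunit, stood at 939 and 821 CPM per kb from its model on 9_10L, and EEF1G, the structural subunit, summed to 933 and 574 CPM per kb. EEF1D, the other catalytic subunit, summed to 57.6 and 45.4 CPM per kb, 16.3-fold and 18.1-fold below EEF1B2. EIF5A, the hypusine-bearing factor that helps ribosomes past stalls, stood at 341 and 228 CPM per kb on 5L. The model called EIF5AL1 on 5S, which lies among the same neighbours, was at 18.4 and 17.5 CPM per kb.

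Termination factors lay at different levels. ETF1, the release factor eRF1 that reads stop codons, stood at 425 and 342 CPM per kb on 3S, and GSPT1, its GTPase partner eRF3, summed to 75.1 and 81.1 CPM per kb. ETF1 exceeded GSPT1 by 5.66-fold and 4.22-fold. No model carried the symbol GSPT2.

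Of the poly(A)-binding proteins, which tie the mRNA tail to eIF4G, PABPC1 was by far the highest. Its model on 6S (108552022 to 108572397) stood at 1009 and 1184 CPM per kb and its model on 6L at 182 and 202 CPM per kb. Both models lie among the neighbours of RefSeq pabpc1 and both were higher in library 3. The models also called PABPC1 on 9_10L, at 4.16 and 3.80 CPM per kb, and on 9_10S, at 0.540 and 0.478 CPM per kb, lie where RefSeq has pabpc1l, the embryonic poly(A)-binding protein of oocytes and early embryos. Summed, the pabpc1 pair exceeded the pabpc1l pair by 253-fold and 324-fold. PABPC4 on 2L stood at 75.7 and 84.2 CPM per kb. The oocyte-type forms thus took different places. Of the eef1a1o models, that on Scaffold67 was at 1108 and 1175 CPM per kb and that on 2L at 58.6 and 57.2 CPM per kb. EIF4E1B and the pabpc1l models lay under 5 CPM per kb in both libraries. The level on Scaffold67 carries the doubt, given above, on reads shared with the eef1a1 models.

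Regulators had the lowest median level of the 10 roles, at 8.87 and 9.47 CPM per kb. EIF4EBP2, which blocks eIF4E from eIF4G when it is not phosphorylated, summed to 84.6 and 105 CPM per kb, so that EIF4E exceeded it by 1.81-fold and 1.61-fold. EIF4ENIF1, which carries eIF4E into the nucleus and into repressed granules, summed to 21.0 and 25.4 CPM per kb. The kinases that phosphorylate eIF2 alpha were all under 10 CPM per kb in both libraries. EIF2AK1, the heme-sensing kinase, was at 9.02 and 9.47 CPM per kb, and EIF2AK4, which senses uncharged tRNA, at 7.50 and 8.33 CPM per kb. EIF2AK3, the kinase of the endoplasmic reticulum, summed to 5.03 and 6.28 CPM per kb. EIF2AK2, which senses double-stranded RNA, summed to 1.09 and 1.07 CPM per kb over 3 models on 5L, of which the model at 40613303 to 40658467 had 1 and 0 reads. EEF1E1, a scaffold of the synthetase complex, stood at 56.1 and 49.9 CPM per kb, and EIF1AD, a relative of eIF1A, at 56.1 and 45.8 CPM per kb.

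Other genes of the pathway were read from a list of 35 symbols, of which 31 had models in the table. Of their 53 models, 49 reached 1 CPM in both libraries (62.8% of all models). RPS6, a ribosomal protein phosphorylated downstream of mTOR, led them at 509 and 394 CPM per kb (1L). DDX3X, a helicase that helps scanning, stood at 210.3 and 191 CPM per kb on 2L, and PAIP2B, an inhibitor of poly(A)-binding proteins, at 156 and 185 CPM per kb on 1L. ABCE1, which splits ribosomes after termination, was at 151 and 136 CPM per kb (1L). The kinases were lower: EEF2K, which inactivates eEF2, stood at 27.6 and 26.8 CPM per kb on 9_10L, RPS6KB1 at 34.7 and 38.3 CPM per kb on 2L and MTOR at 9.79 and 9.76 CPM per kb. ATF4, whose mRNA is translated when eIF2 alpha is phosphorylated, stood at 114 and 106 CPM per kb on 4L, above all 4 kinases of eIF2. The hypusine enzymes lay below EIF5A, DOHH at 13.1 and 13.2 CPM per kb and DHPS at 4.99 and 4.89 CPM per kb on 3L. CPEB1, which controls tail length of maternal mRNAs, had 9 and 5 reads on 3S and 5 and 3 reads on 3L.

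L and S copies were compared within each library to see which copy of a factor supplies its mRNA. A pair was a symbol with exactly 1 model on an L chromosome and 1 on its S partner. The log2 ratio of L over S per kb was tested against 0 with limma over all 5595 pairs of the table, with Benjamini-Hochberg adjustment and a threshold of 0.05. Of 34 member pairs 33 could be tested, and EEF1A2 on 9_10 had too few reads. The L copy was called higher in 12 pairs, or 36.4% (all pairs 40.8%), and the S copy in 14 pairs, or 42.4% (all pairs 29.5%). By size alone, at least 2-fold in both libraries, L was higher in 8 pairs (30.7% of all pairs) and S in 9 pairs (20.8% of all pairs). The median ratio of member pairs was -0.09 on the log2 scale, and 0.27 over all pairs. The median size of the ratio, without its sign, was 1.04 for members and 1.27 for all pairs, and the libraries differed by a median of 0.15 in a member's ratio and 0.31 in that of any pair.

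**Figure D3:**
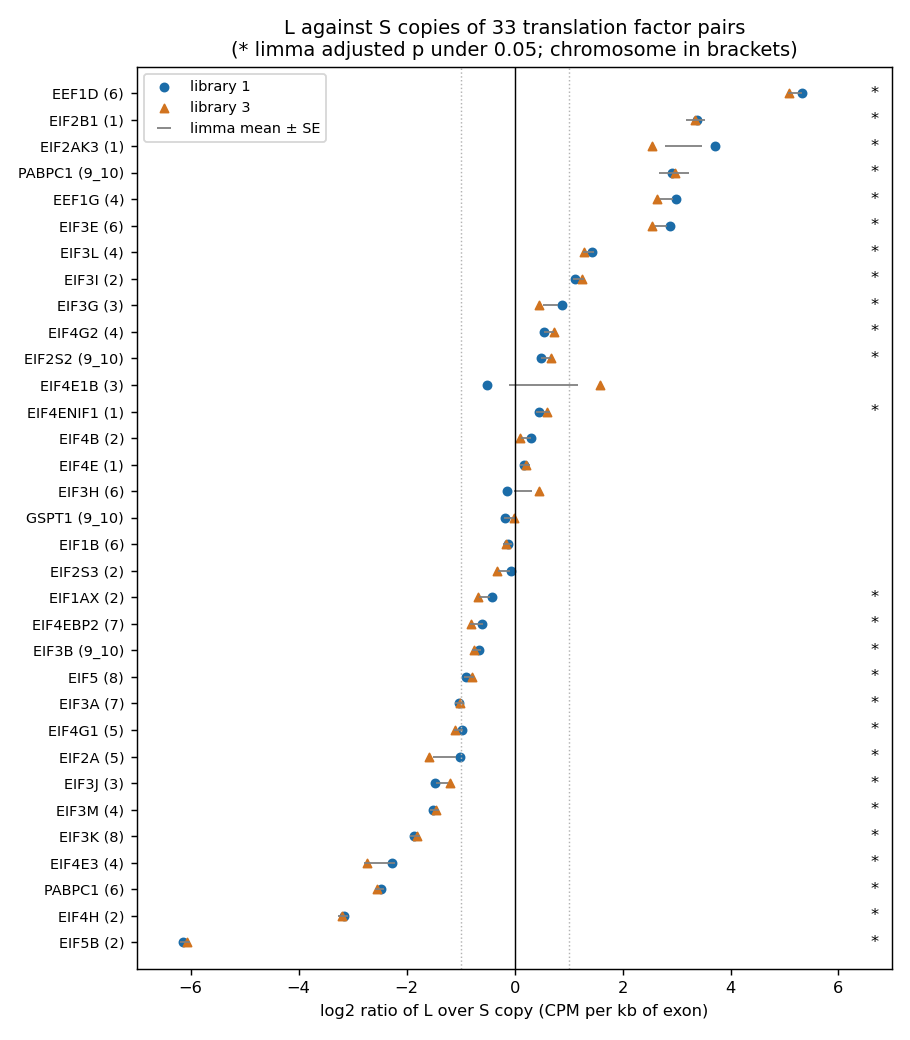
Log2 ratio of the L over the S copy per kb of exon in library 1 (circles) and library 3 (triangles) for 33 pairs, with limma's mean ± SE as a line, stars at an adjusted p under 0.05 and dotted lines at 2-fold. Pairs run from EEF1D at 5.20 to EIF5B at -6.10, and the libraries fall on opposite sides of 0 for EIF4E1B and EIF3H only.

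The strongest S use was in EIF5B, the subunit-joining GTPase. Its S copy stood at 89.6 and 91.2 CPM per kb in libraries 1 and 3 and its L copy at 1.26 and 1.36 CPM per kb, from 117 and 142 reads. The log2 ratio was -6.10 (SE 0.09, n = 2 libraries; limma adjusted p = 4.08e-05), or 68.7-fold. EIF4H followed with 206 and 198 CPM per kb from 2S and 22.9 and 21.5 CPM per kb from 2L, 9.09-fold apart. PABPC1 on chromosome 6 was 5.70-fold higher from S, from the levels given above, and close copies can share reads here too. EIF4E3 was 5.69-fold higher from S, at 137 and 254 reads against 97 and 131 reads for a longer L model, and was not called when levels were left undivided by length. Smaller S leads of 2-fold or more were found for EIF3K (3.59-fold, 308 and 233 CPM per kb on 8S), EIF3M (2.80-fold), EIF3J (2.53-fold), EIF2A (2.46-fold) and EIF3A (2.02-fold). EIF4G1 was 2.06-fold higher from S, with 89.3 and 113 CPM per kb on 5S against 45.3 and 52.7 CPM per kb on 5L, and missed 2-fold in library 1. The other S copies called higher were those of EIF5 (1.79-fold), EIF3B (1.63-fold), EIF4EBP2 (1.63-fold) and EIF1AX (1.47-fold).

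The strongest L use was in EEF1D, the lower catalytic subunit of eEF1B. Its L copy (6L) stood at 56.2 and 44.1 CPM per kb and its S copy at 1.39 and 1.30 CPM per kb, from 80 and 84 reads. The log2 ratio was 5.20 (SE 0.13, n = 2 libraries; limma adjusted p = 6.80e-05), or 36.8-fold. EIF2B1 was 10.2-fold higher from L, with 33.2 and 23.6 CPM per kb against 3.19 and 2.33 CPM per kb. EEF1G was 7.03-fold higher from L, with 829 and 494 CPM per kb on 4L (26394925 to 26410691) against 104 and 79.8 CPM per kb on 4S. EIF3E was 6.54-fold higher from L, with 449 and 298 CPM per kb against 61.3 and 51.1 CPM per kb. The pabpc1l models on 9_10 were 7.72-fold apart, from 243 and 251 reads on L and 32 and 32 reads on S. EIF2AK3 was 8.75-fold higher from L over both libraries, with 49 and 144 reads from S, and its ratio differed more between libraries than that of the other leading pairs (3.72 and 2.54 on the log2 scale). EIF3L at 2.58-fold and EIF3I at 2.27-fold completed the L leads of 2-fold or more. Below that size the L copies of EIF3G (1.58-fold), EIF4G2 (1.55-fold), EIF2S2 (1.49-fold) and EIF4ENIF1 (1.43-fold) were called higher.

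Within eIF3 the higher copy was L for some subunits and S for others. Of 10 eIF3 pairs, limma called 4 higher from L (EIF3E, EIF3G, EIF3I and EIF3L; 40.8% of all pairs) and 5 higher from S (EIF3A, EIF3B, EIF3J, EIF3K and EIF3M; 29.5% of all pairs), and with 10 pairs nothing is read from these shares. Both eEF1B pairs, EEF1D and EEF1G, were called higher from L (40.8% of all pairs), and nothing is read from so few pairs. EEF1B2 had only 1 model and so no pair. EIF3H was not called, and its libraries differed in sign at -0.14 and 0.45. Of the eIF2 subunits with a pair, EIF2S2 was called higher from L, with 422 and 342 CPM per kb against 303 and 214 CPM per kb from S, while EIF2S3 was not called, at a log2 ratio of -0.19 (SE 0.11, n = 2 libraries; limma adjusted p = 0.175). The other pairs that did not pass were EIF1B, GSPT1, EIF4E, EIF4B and EIF4E1B, with log2 ratios between -0.13 and 0.54. For EIF4E1B the error was wide (SE 0.64), so its 20 to 69 reads per model do not tell the copies apart. The copies of EIF4E stood at 81.3 and 90.7 CPM per kb on 1L and at 71.7 and 78.7 CPM per kb on 1S, and those of GSPT1 at 35.4 and 40.3 CPM per kb on 9_10L and 39.8 and 40.8 CPM per kb on 9_10S. Apart from EIF4E1B, the pair farthest apart of those not called was EIF4B, at 1.15-fold. These p-values do not show that the copies were equal. Exon lengths of the models enter each ratio. Of the 26 called pairs, 22 were called the same way when levels were not divided by length, 0 were called the other way and 4 (EIF4E3, EIF5, EIF2S2 and EIF4G2) were not called. Of these 4, the log2 ratio of EIF5 turned from -0.84 to 0.24 and that of EIF4G2 from 0.63 to -0.12. Conversely EIF3H (log2 ratio 1.63, higher from L), EIF1B (0.27, higher from L) and EIF4E (higher from S, limma adjusted p = 0.000982) were called only when levels were not divided by length.

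EEF1A1, EEF2 and EIF5A fell outside the pair rule, because a copy lies on a scaffold, shares its chromosome with another model of that symbol, or carries another symbol. After their values had been seen, 4 pairs with the same neighbours were added. The EEF1A1 model on 5S was 1.43-fold above that on Scaffold28 (log2 ratio -0.52, SE 0.08, n = 2 libraries; limma adjusted p = 0.00517). The eef1a1o model on Scaffold67 was 19.7-fold above that on 2L. EEF2 was 1.56-fold higher from 1L than from 1S, and EIF5A on 5L was 15.5-fold above EIF5AL1 on 5S. These 4 ratios carry the same doubt on reads shared by close copies. Which subgenome a scaffold belongs to was not tested.

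The levels of the factors were also set side by side between the libraries. This is 1 sample against 1 sample and has no test. Of 106 members with 10 reads or more, 59 were higher in library 1, or 55.7% (45.6% of all models), and 47 in library 3. A difference of 1.5-fold or more was found for 6 members higher in library 1 (12.0% of all models) and 4 higher in library 3 (14.1% of all models). When libraries were scaled by TMM or by DESeq2 size factors instead of their totals, these counts were 11 and 4, where these scalings shift log2 ratios by -0.06 and -0.04. The shares of 12.0% and 14.1% hold for totals only. Shares of all models were not computed under the other scalings, so nothing is read from the count of 11. On the log2 scale the ratio of library 3 over library 1 had a median of -0.08 for members, 0.05 for all models, -0.46 for 145 ribosomal protein models and -0.03 for 29 synthetase models. Of the 145 ribosomal protein models 142 were higher in library 1. Among members of 100 CPM per kb or more, 63.4% were higher in library 1, close to the 64.2% of all models of that level. At a mean of 10 CPM or more the shares were 55.6% of 90 members and 42.9% of 9565 models. The part of level in these shares was not tested.

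Members of several roles were lower in library 3. Among those at a mean of 10 CPM, EIF3H on 6S (80.1 and 45.9 CPM in libraries 1 and 3), EEF1G on 4L (1182 and 704 CPM) and EIF3I on 2S (187 and 116 CPM) had the largest differences. EIF3E on 6L, with 690.1 and 458 CPM, and EIF5A on 5L, with 641 and 429.5 CPM, came next. The largest differences the other way were in EIF4G2 on 4L (445 and 650.0 CPM), EIF1B on 6S (355 and 509 CPM) and EIF3CL on Scaffold29 (132 and 189 CPM). EIF1B on 6L had 432 and 604 CPM and EIF4EBP2 on 7S had 63.5 and 82.9 CPM. None of these 10 differed by more than the 1.74-fold of EIF3H. Larger ratios occurred only at low counts: EIF4E2 on 3L had 74 and 21 reads, EEF1A2 on 6L had 202 and 67, EIF4E1B on 3L had 20 and 69, EIF2AK3 on 1S had 49 and 144, and EIF2AK2 at 40663275 to 40729257 had 4 and 9. LARP1, a binder of mRNAs that encode the translation machinery and not itself a member, stood at 37.3 and 55.9 CPM per kb on 3L and at 43.1 and 64.1 CPM per kb on 3S. It is a single gene from the list of other pathway genes. Of the 51 models of that list with 10 reads or more, 30 were higher in library 1 and 21 in library 3. That is 58.8% higher in library 1, against 45.6% of all models. A link of LARP1 to the levels of members was not tested.

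The difference between libraries moved with the length of the exons. The log2 ratio of library 3 over library 1 had a Spearman correlation with length of 0.32 over 106 members and 0.20 over all 18820 models. At a mean of 10 CPM or more it was 0.32 over 90 members and 0.34 over 9565 models, so members were not set apart there. Over the 24 eIF3 models it was 0.64. The points of each correlation share both libraries. In the shortest of 5 length classes (172 to 1434 bp) the median ratio was -0.10 for members and -0.11 for all models, and in the longest (4035 to 20100 bp) it was 0.20 for both. In the next class (1434 to 2062 bp) members had a median of -0.28 where all models had -0.01. Of all models 45.6% were higher in library 1, and of all models of 100 CPM per kb or more 64.2% were. By role, 17 of 24 eIF3 models, 11 of 15 elongation models, 6 of 8 eIF2 and tRNA carrier models and 5 of 6 eIF2B models were higher in library 1. The same held for 10 of 22 cap-binding models, 3 of 8 scanning models, 2 of 5 poly(A)-binding models, 3 of 12 regulators, and 1 of 3 models each for subunit joining and termination. Under TMM these counts moved by at most 1 model. Over the 24 eIF3 models the median was -0.24, and -0.27 after the median of each length class had been taken off. After that step it was -0.30 for eIF2B, -0.19 for elongation, -0.18 for eIF2 and tRNA carriers and -0.35 for ribosomal proteins. It turned from 0.15 to -0.05 for poly(A) binding, from 0.03 to -0.18 for subunit joining and from 0.04 to -0.08 for termination. Cap-binding models (0.07), scanning models (0.12) and regulators (0.06) stayed positive. The part of length, RNA quality or read length in these differences was not tested. L and S copies mostly differed together: in 27 of 33 member pairs, or 81.8%, both copies were higher in the same library, against 64.2% of all pairs. The share was 98.3% of 59 ribosomal protein pairs and 75% of 8 synthetase pairs. All pairs include those with as few as 10 reads per library, and the part of read depth in these shares was not tested.

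**Figure D4:**
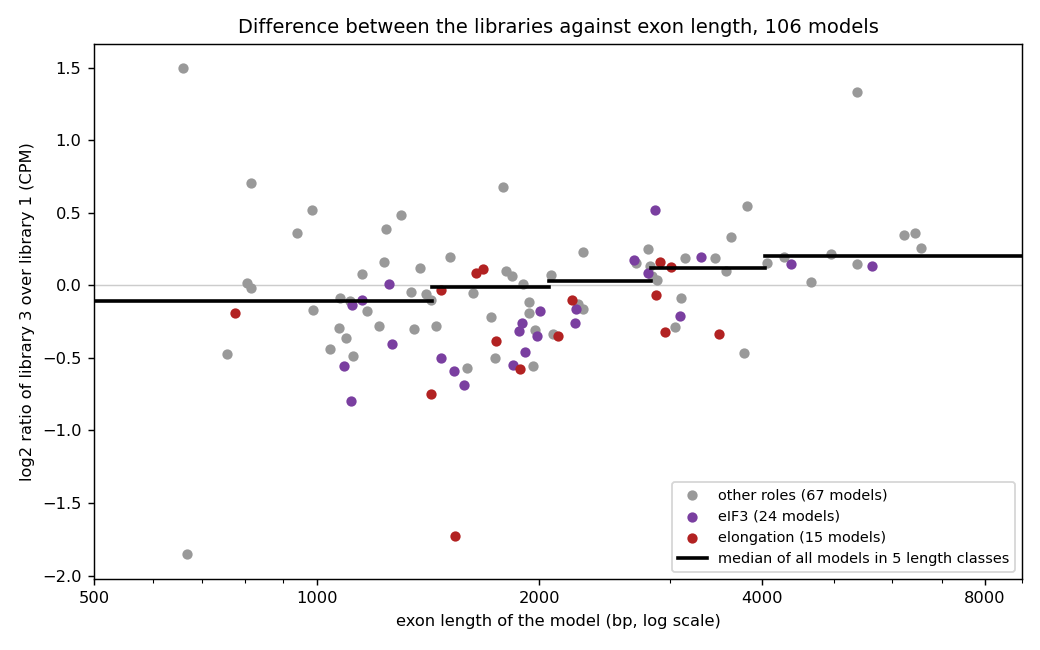
Log2 ratio of library 3 over library 1 (CPM) against the exon length of the model (bp, log axis) for 106 members, with eIF3 in purple, elongation factors in red, other roles in grey and the median of all models in 5 length classes as black bars. The eIF3 models run from -0.80 for EIF3H on 6S to 0.52 for EIF3CL on Scaffold29, and the black bars rise from -0.11 to 0.20.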

How the data were processed

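The deposited signal of each model was made by the authors as exon reads per gene model, counted with HOMER on Mayball models of assembly version 9.1 and multiplied by 1 constant per library, per the file headers. Alignment with STAR 2.4.0k and the use of FastQC, HOMER and edgeR are given in the submitters' processing notes. Dividing the signal by what 1 read is worth (0.808 and 0.715) gave whole reads, within 0.05, for 100% of nonzero values. These reads are 69.5% and 68.0% of the 37256829 and 42978772 aligned tags in the header. Columns of other samples numbered 0, and 2 further libraries named in the header were not analysed here.

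With 1 group, no count test between conditions could be fitted. CPM used the recovered totals, and CPM per kb the deposited exon length. L and S ratios were computed as log2 of reads plus 0.5 per kb, for copies with 10 reads per pair in each library, and tested with limma 3.58.1 in R 4.3.3. The test was checked on simulated data in which the copies were drawn independently and their exon lengths were exact. Such data cannot show the effect of reads shared by close copies or of incomplete exon models. Alternatives were edgeR 4.0.16, DESeq2 1.42.0, other pseudocounts and minimums, other scalings and leaving out a library. Library ratios carried a pseudocount of 0.1 CPM. Named were the 3 highest models of each role, pairs 2-fold apart in both libraries, the 5 largest library ratios each way at 10 CPM, and all models of the main families. Other genes were named after their values were seen. The members, lists and tests were chosen with earlier results of these data known. RefSeq names come from assembly 10.1, of which no coordinates were used, and 14 of 16 models looked up by neighbours were matched.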

Additional observations from a re-analysis of the deposited data

How the results depend on the processing

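The number of members at 1 CPM was 101 under TMM and DESeq2 scaling and 102 to 103 with either library alone. The share of reads was 5.33% to 5.35% with either library alone, 5.30% without kinases, binding proteins and other genes that only share the prefix, and 2.98% without EEF1A1. The median level of 69.3 CPM per kb over both libraries was 74.5 for members with 10 reads, 86.2 without the genes that share only the prefix, 73.8 without scaffolds, 146.3 with models of a symbol added up, and 66.8 to 71.7 with either library alone. TMM moved the 41 levels of 100 CPM per kb or more by at most 0.52%. For L and S copies, edgeR and DESeq2 gave 12 and 14 calls as limma did, and other pseudocounts and minimums gave the same counts. Without division by length there were 12 and 13 calls, with 9 L and 8 S pairs at 2-fold. With either library alone there is no test, and pairs at 2-fold numbered 8 to 9 for L and 9 to 10 for S. The median ratio was -0.14 to -0.02 with either library alone and turned to 0.033 without division by length. Between libraries, members 1.5-fold higher in library 1 numbered 11 under TMM and 11 under DESeq2, those higher in library 3 numbered 2 at a minimum of 100 reads, and the median became -0.13 under TMM. The median of all models moved down with it, from 0.05 to -0.004 under TMM. The rise to 11 follows from the shift that the scaling itself gives to the ratios. Shares of all models at 1.5-fold were not computed under these scalings. The cause of the other moves was not tested. Pairs by neighbours and the settings without EEF1A1, without scaffolds and by length class were chosen after seeing the data. No paired analysis was possible because both libraries belong to the same group, with no other group to pair them with. The L and S ratios are each taken within a library. Models under 10 reads, 3 of the 109, are limited by depth.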
